A study of Mus musculus with 6 samples.

Results

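The genes of the major histocompatibility complex (MHC) were taken as every gene whose symbol starts with H2- other than those ending in -ps, together with B2m, Cd74, Ciita, Tap1, Tap2, Tapbp and Nlrc5. The rule found 48 of the 55401 genes in the count files, of which 34 belong to class I, 13 to class II and 1, H2-Ke6, to neither class. By symbol, the class I genes were 2 classical heavy chains, 27 non-classical heavy chains and 5 partners. The class II genes were 4 classical chains, 7 non-classical chains and 2 partners. Not all of these are annotated as coding for protein. H2-K2, H2-Q3, H2-Pa and H2-Pb are annotated as unprocessed pseudogenes, and H2-Bl, H2-T10 and H2-Q5 as polymorphic pseudogenes. A fragment was counted in at least 1 library for 42 of the 48, and 33 passed the filter on low counts and were tested.

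The RNA came from whole subcutaneous white adipose tissue (scWAT) of male mice at 8 weeks of age, with 3 libraries per group. The control libraries, labelled WT, are called YT-FF in the study's methods. Elsewhere the paper uses YT-FF for mice with floxed Yap and Taz (Yapfl/fl;Tazfl/fl). Whether these controls carried Cre is not spelled out in the sources used here. The libraries labelled YT-AKO have the genotype Yapfl/fl/Tazfl/fl;AdipoqCre, in which the Adipoq promoter drives Cre in mature adipocytes and leaves both genes intact in the other cells of the tissue. The floxed stocks were C57BL/6–129 and the Cre stock C57BL/6, the mice were kept at room temperature on normal chow, and the methods give separate mice per group. The comparison asks how the RNA of scWAT differs when adipocytes lack the transcriptional coactivators YAP and TAZ.

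MHC class I molecules sit on nearly all nucleated cells. A polymorphic heavy chain pairs with β2-microglobulin (B2m), is loaded in the endoplasmic reticulum with peptides that the Tap1–Tap2 transporter brings in and tapasin (Tapbp) helps to fit, and is read by CD8 T cells and NK cells. MHC class II molecules are made mainly by B cells, dendritic cells and macrophages: an α and a β chain assemble around the invariant chain (Cd74), H2-DM exchanges the remaining invariant chain fragment for peptide, H2-O holds H2-DM back, and CD4 T cells read the result. Transcription of class I genes is raised by Nlrc5 and that of class II genes by Ciita, 2 related coactivators that act through factors bound at the promoters. Adipocytes and the immune cells among them have both been described as sources of MHC molecules in fat.

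The libraries held between 17740987 and 21838493 counted fragments. Library YT-AKO 2 stood apart from the rest, with a scaling factor of 0.778 against 0.954 to 1.16 in the other 5 libraries and counts in 20501 genes against 22810 to 24576. Adipoq and 6 further adipocyte markers were counted in every library, and their summed level in CPM (counts scaled to library size) was 10086 to 15100 in YT-FF and 17102 to 29260 CPM in YT-AKO. Yap1 was lower in YT-AKO (69.0, 57.0 and 66.6 CPM against 37.7, 29.0 and 31.2 CPM). Wwtr1, the gene of TAZ, was higher (77.4, 75.9 and 98.6 CPM against 175, 133 and 160 CPM), which goes against the label. With scaling by library totals alone its log2 fold change was 0.59 (edgeR adjusted p = 0.0796). Divided by exon length and scaled to a common total, its groups overlapped, at 62.3, 62.8 and 74.5 against 102, 48.7 and 91.3. Gene counts cover every exon, deleted or not, and every cell type. By immunoblot the paper reports lower YAP and TAZ protein in scWAT of YT-AKO mice. In view of the Wwtr1 counts the group is named below as the libraries labelled YT-AKO. Across all tested genes the fold change and gene length had a Spearman correlation of -0.376, a description across genes, which are not independent replicates.

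The members are clustered in the genome: 44 of the 48 lie on chromosome 17 of mm10, from class II genes such as H2-Eb1 (34305867 to 34316674, plus strand) and H2-Ob (34238903 to 34254414, plus strand) to class I genes such as H2-D1 (35262730 to 35267499, plus strand) and H2-M2 (37480851 to 37483552, minus strand). The other 4 are B2m on chromosome 2 (122147686 to 122153083), Nlrc5 on chromosome 8 (94434356 to 94527272), Ciita on chromosome 16 (10480059 to 10528418) and Cd74. Promoter sequence from RefSeq (GRCm38.p6, 250 bases before to 50 after each start) was at hand for 34 members in 37 windows. The short word CCAAT, the core of the Y box that MHC promoters share, was found on either strand in 33 of these 37 windows (89.2%) against 37.4% of all 32851 windows of that length. A kappa B word, GGGGA followed directly by TTCCC, was found in 5 windows, those of H2-K1, H2-D1, H2-Q6 and H2-Q7, against 0.107% of all windows. The core of an interferon-stimulated element, GAAA, any 2 bases and GAAA again, was found in 3 windows (B2m, H2-T22 and H2-T23; 8.11%) against 3.44% of all windows. The word counts are descriptions of these letters; class I heavy chain genes are copies of one another, so their windows are not independent, and matches of different words were allowed to overlap. The following windows show the gene pair of E β chains of which H2-Eb2 fell and H2-Eb1 did not pass the test, H2-Ob and H2-M2, which fell, and the 2 classical class I genes, which share the kappa B word. Each is printed 5′ to 3′ on the strand of its gene, in lower case. The capitals mark CCAAT, which reads backwards in complement where it lies on the other strand, and the kappa B word.

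The H2-Eb1 window lies at chr17:34305617-34305916 (plus strand), that of H2-Eb2 at chr17:34325425-34325724 (plus strand) and that of H2-Ob at chr17:34238655-34238954 (plus strand).
H2-Eb1: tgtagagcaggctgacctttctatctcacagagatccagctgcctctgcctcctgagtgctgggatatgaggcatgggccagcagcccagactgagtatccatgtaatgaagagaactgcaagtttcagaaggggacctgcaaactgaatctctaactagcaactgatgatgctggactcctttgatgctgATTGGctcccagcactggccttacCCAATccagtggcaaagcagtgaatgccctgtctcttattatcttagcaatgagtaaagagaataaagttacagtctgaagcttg
H2-Eb2: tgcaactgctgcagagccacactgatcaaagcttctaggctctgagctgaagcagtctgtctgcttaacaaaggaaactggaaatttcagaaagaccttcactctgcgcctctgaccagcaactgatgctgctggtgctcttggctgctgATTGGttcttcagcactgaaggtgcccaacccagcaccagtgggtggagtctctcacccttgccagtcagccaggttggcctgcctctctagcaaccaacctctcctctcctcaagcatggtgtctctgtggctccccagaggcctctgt
H2-Ob: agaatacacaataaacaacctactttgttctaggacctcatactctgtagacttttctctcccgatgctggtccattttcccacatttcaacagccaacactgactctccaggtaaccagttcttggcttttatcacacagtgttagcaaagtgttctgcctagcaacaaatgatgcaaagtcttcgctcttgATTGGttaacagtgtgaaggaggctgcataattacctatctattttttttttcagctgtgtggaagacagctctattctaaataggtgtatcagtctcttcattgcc
The H2-M2 window lies at chr17:37483505-37483804 (minus strand), that of H2-K1 at chr17:34000284-34000583 (minus strand) and that of H2-D1 at chr17:35262844-35263143 (plus strand).
H2-M2: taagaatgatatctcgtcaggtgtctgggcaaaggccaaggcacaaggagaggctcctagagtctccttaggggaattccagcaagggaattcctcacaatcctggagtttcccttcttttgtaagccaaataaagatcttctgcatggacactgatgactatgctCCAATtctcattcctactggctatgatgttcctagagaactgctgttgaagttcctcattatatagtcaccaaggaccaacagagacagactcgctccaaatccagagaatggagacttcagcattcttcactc
H2-K1: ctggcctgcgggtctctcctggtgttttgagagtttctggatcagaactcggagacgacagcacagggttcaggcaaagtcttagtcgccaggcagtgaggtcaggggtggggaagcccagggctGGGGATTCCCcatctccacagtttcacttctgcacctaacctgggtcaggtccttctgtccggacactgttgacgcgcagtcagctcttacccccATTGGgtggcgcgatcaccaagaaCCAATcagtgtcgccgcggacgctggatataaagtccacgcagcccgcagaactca
H2-D1: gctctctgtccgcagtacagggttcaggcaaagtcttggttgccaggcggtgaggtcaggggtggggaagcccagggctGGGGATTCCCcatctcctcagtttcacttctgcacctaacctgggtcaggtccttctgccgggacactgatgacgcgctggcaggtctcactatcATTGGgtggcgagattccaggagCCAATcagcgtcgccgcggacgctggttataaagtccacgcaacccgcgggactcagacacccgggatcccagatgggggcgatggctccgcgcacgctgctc

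H2-Eb1 holds CCAAT on both strands and H2-Eb2, H2-Ob and H2-M2 hold it once each. No window was given for Ciita, Nlrc5, H2-Ab1 or Cd74.

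To compare levels between genes, counts were divided by exon length and scaled to a common total (TPM). In YT-FF the most abundant member was B2m at 8452 ± 291 TPM (mean ± SD, n = 3), followed by Cd74 at 4640 ± 306 TPM. The classical class I chains H2-D1 (3407 ± 105 TPM) and H2-K1 (3050 ± 366 TPM) came next, with overlapping ranges between them. Then came the classical class II chains H2-Eb1 (1139 ± 15.3 TPM), H2-Ab1 (880 ± 17.2 TPM) and H2-Aa (729 ± 47.4 TPM), each with all 3 libraries above the next gene. Below H2-Aa lay the non-classical class I genes H2-Q6 (420 ± 77.4 TPM), H2-Q4 (379 ± 50.1 TPM) and H2-T23 (337 ± 58.3 TPM) and the chaperone gene Tapbp (351 ± 23.4 TPM), whose ranges overlapped from neighbour to neighbour. From H2-DMb2 (268 ± 19.8 TPM) to H2-M2 (48.9 ± 13.9 TPM) every gene overlapped the next. The 2 coactivators were low: Ciita at 60.2 ± 6.92 TPM and Nlrc5 at 52.3 ± 14.9 TPM. H2-Eb2, at 43.4 ± 6.29 TPM, was far below H2-Eb1. Classical chains made up 72.8, 75.1 and 76.5% of the summed class I heavy chain TPM in YT-FF and 79.8, 77.0 and 82.0% in YT-AKO, ranges that did not overlap.

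**Figure D1:**
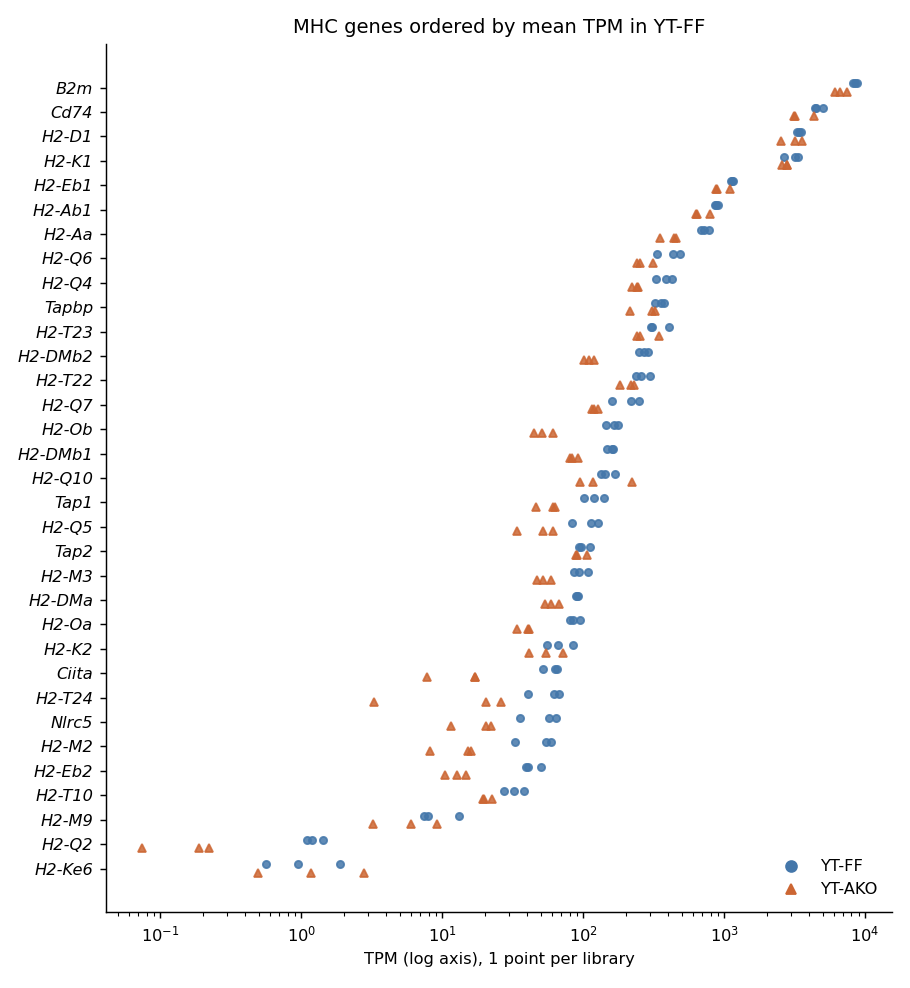
Level of the 33 tested MHC genes in TPM on a log axis, 1 point per library (blue circles YT-FF, orange triangles YT-AKO), ordered by the YT-FF mean. B2m, Cd74, H2-D1 and H2-K1 lead, and the YT-AKO points lie to the left of the YT-FF points for most genes, as they do on this scale for 79.35% of all tested genes.

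On the TPM scale 32 of the 33 tested members had a lower mean in YT-AKO, with a median log2 ratio of -0.67. The same median over all 16807 tested genes was -0.66, so the shift on this scale was that of genes at large. Differences between groups are therefore given below in CPM scaled by trimmed mean of M-values (TMM), on which the median log2 fold change of all tested genes was -0.02.

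In the YT-AKO libraries 6 of the 33 tested members were lower than in YT-FF (adjusted p under 0.05 in the quasi-likelihood test of edgeR, adjusted by Benjamini-Hochberg over the 16807 genes tested) and 0 were higher. These were Ciita, H2-Eb2 and H2-Ob of class II and Nlrc5, H2-M2 and H2-Q2 of class I. Of all tested genes 9.01% were called lower and 12.6% higher. At an unadjusted p under 0.05 there were 12 of 33 members, beside 40.8% of all tested genes. The DESeq2 test called 8 members, 7 of them lower, beside 12.6% of all genes lower and 16.2% higher. With limma-voom 6 members were called, all lower, beside 9.80% of all genes lower and 11.8% higher. DESeq2 and limma-voom each kept 5 of the 6 edgeR calls. H2-Q2 missed the threshold in both (DESeq2 adjusted p = 0.063, limma-voom adjusted p = 0.055). By ranges alone, 10 members had all 3 YT-AKO libraries below all 3 YT-FF libraries, 5 had them above and 18 overlapped, against 25.8% of all tested genes apart and lower and 25.7% apart and higher. Without YT-FF 1 calls were lost for genes at large as for the members: no member and none of 17183 genes was called by edgeR (7 members at an unadjusted p under 0.05), and without YT-FF 2 no member and 2 genes were called (8 members at an unadjusted p under 0.05). The log2 fold changes of the 6 members moved little in these fits, to -1.45 and -1.49 for Ciita, -1.17 and -1.01 for H2-Eb2, -0.95 and -0.92 for H2-Ob, -0.84 and -0.76 for Nlrc5, -1.11 and -1.21 for H2-M2 and -2.04 and -2.20 for H2-Q2. Without YT-AKO 2, the library that stood apart, 12 of 34 members were called, 11 of them lower, beside 14.0% of all 17350 genes lower and 16.9% higher, so calls rose for genes at large too.

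**Figure D2:**
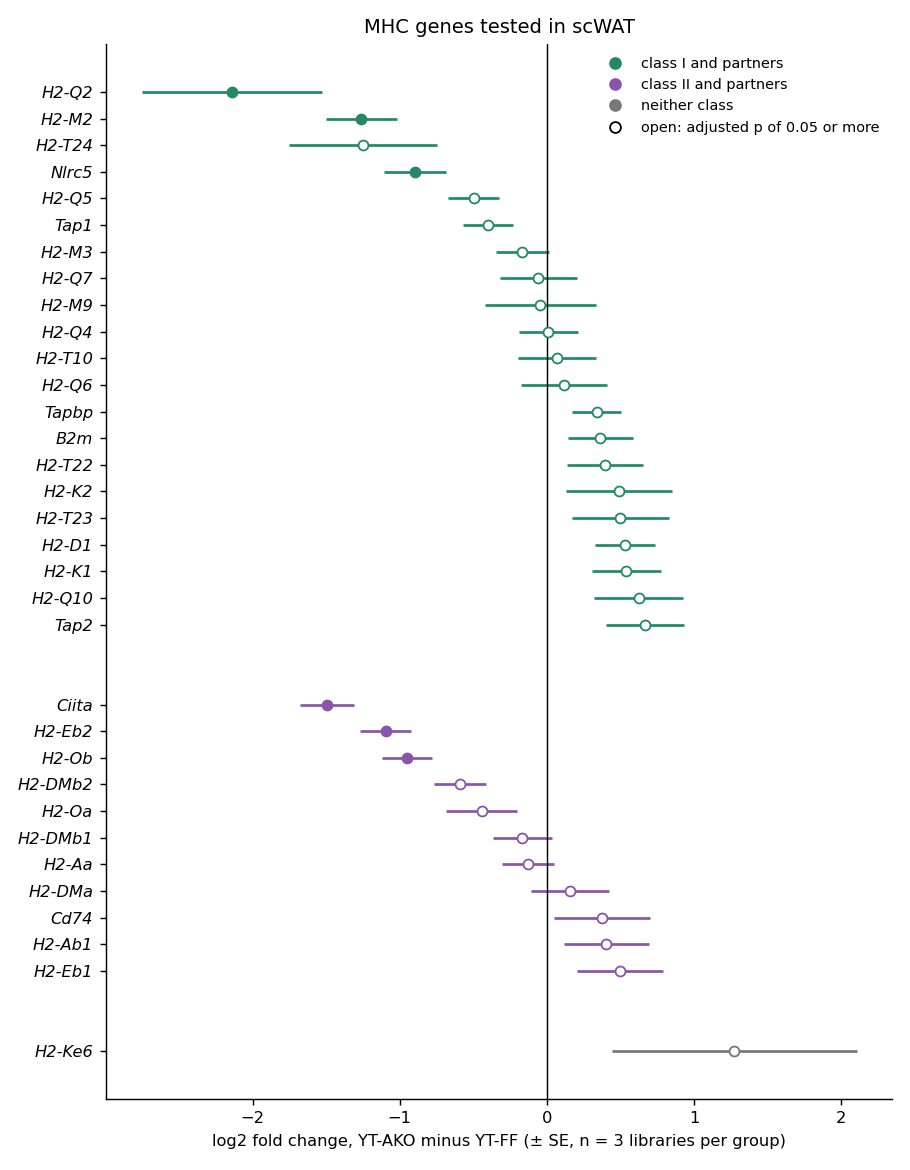
Log2 fold change (YT-AKO minus YT-FF, ± SE, n = 3 libraries per group) of the 33 tested MHC genes by class, with filled points for adjusted p under 0.05. The 6 filled points all lie below 0, from -0.90 for Nlrc5 to -2.14 for H2-Q2, while B2m, Cd74, H2-K1 and H2-D1 lie between 0.36 and 0.54 with open points.

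Ciita encodes the coactivator on which class II transcription depends. Its level was 161, 153 and 138 CPM in YT-FF and 58.5, 42.4 and 59.4 CPM in YT-AKO. The groups were far apart, and the lowest YT-FF library held more than double the highest YT-AKO level. Ciita fell by 1.50 ± 0.18 on the log2 scale (SE; 95% interval -1.92 to -1.07; edgeR adjusted p = 0.0153), and with correction for gene length by 1.08 (edgeR adjusted p = 0.0165).

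H2-Eb2 is a second gene for an E β chain beside H2-Eb1. It measured 34.5, 43.4 and 37.9 CPM in YT-FF and 17.9, 20.4 and 15.9 CPM in YT-AKO, with no overlap, and fell by 1.09 ± 0.17 (edgeR adjusted p = 0.0177). H2-Ob encodes the β chain of H2-O, the inhibitor of peptide exchange that B cells are known for. Its level was 229.5, 240.2 and 217 CPM in YT-FF and 117, 138 and 100.2 CPM in YT-AKO. All YT-AKO libraries were below all YT-FF libraries, and H2-Ob fell by 0.95 ± 0.17 (edgeR adjusted p = 0.0185). Ciita, H2-Eb2 and H2-Ob kept their direction in each of 18 alternative fits and were called in 14 of them, with the fits without YT-FF 1 or YT-FF 2 among the other 4.

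The abundant class II genes did not follow these 3. Cd74 measured 1960, 2120 and 2062 CPM in YT-FF and 1906, 4123 and 1935 CPM in YT-AKO. Libraries YT-AKO 1 and 3 lay just under the YT-FF range and YT-AKO 2 at about double it, so the groups overlapped (log2 fold change 0.37 ± 0.33, edgeR adjusted p = 0.415; -0.09 without YT-AKO 2). H2-Eb1 showed the same spread, at 577, 566 and 604 CPM in YT-FF and 615, 1227 and 628 CPM in YT-AKO (0.50 ± 0.29, edgeR adjusted p = 0.231). H2-Ab1, the A β chain, was at 562 to 622 CPM in YT-FF and 584, 1169 and 608 CPM in YT-AKO (0.40 ± 0.29, edgeR adjusted p = 0.321). H2-Aa, its α chain partner, was at 709 to 749 CPM in YT-FF and 598, 762 and 635 CPM in YT-AKO (-0.13 ± 0.18, edgeR adjusted p = 0.612). None of these 4 passed the test in any of the 18 alternative fits, and the intervals leave room for a change in either direction: -0.39 to 1.14 for Cd74 and -0.54 to 0.28 for H2-Aa.

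The H2-DM and H2-O genes lay on either side of the threshold. H2-DMb2 measured 130, 119 and 120 CPM in YT-FF and 74.1, 100 and 70.8 CPM in YT-AKO, with no overlap, and missed the threshold (-0.59 ± 0.18, edgeR adjusted p = 0.0504). It was called in 10 of 18 alternative fits, among them DESeq2 (adjusted p = 0.0313), the gene length correction (-0.93, edgeR adjusted p = 0.0219) and the fit without YT-AKO 2 (-0.76, edgeR adjusted p = 0.00395). H2-DMb1, its neighbour, was at 68.2 to 70.9 CPM in YT-FF and 55.3, 80.03 and 50.1 CPM in YT-AKO (-0.17 ± 0.20, and -0.40 with edgeR adjusted p = 0.0338 without YT-AKO 2). H2-DMb1 shares 22.7% of its 50-base words with H2-DMb2, and fragments that align to both were left out by the counting. H2-DMa, the α chain of both, was at 79.4 to 86.0 CPM and 66.2, 133 and 74.5 CPM (0.16 ± 0.26). H2-Oa, the α chain beside H2-Ob, was at 31.1 to 33.6 CPM in YT-FF and 17.1, 32.4 and 21.2 CPM in YT-AKO (-0.44 ± 0.24, edgeR adjusted p = 0.203; -0.74 with adjusted p = 0.00723 without YT-AKO 2).

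Nlrc5 encodes the coactivator of class I genes. It measured 126, 138 and 83.7 CPM in YT-FF and 67.1, 55.9 and 63.7 CPM in YT-AKO, with no overlap but a wide YT-FF range. Nlrc5 fell by 0.90 ± 0.21 (edgeR adjusted p = 0.0287). With the gene length correction the difference was -0.51 and missed the threshold (edgeR adjusted p = 0.0958), as it did without YT-AKO 3 (-0.91, edgeR adjusted p = 0.0571).

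The class I molecule itself was not lower on this scale. H2-K1 was at 2419, 2484 and 2147 CPM in YT-FF and 2930, 4317 and 2987 CPM in YT-AKO, and H2-D1 at 2278, 2156 and 2510 CPM against 2923, 3747 and 3358 CPM. Both classical chains had all YT-AKO libraries above all YT-FF libraries, yet neither passed the test (H2-K1 0.54 ± 0.23, edgeR adjusted p = 0.125; H2-D1 0.53 ± 0.21, edgeR adjusted p = 0.0951). H2-D1 passed with DESeq2 (0.52, adjusted p = 0.0338) and without YT-AKO 2 (0.44, edgeR adjusted p = 0.0471). B2m was at 1818, 1851 and 2074 CPM in YT-FF and 2058, 2977 and 2356 CPM in YT-AKO (0.36 ± 0.22, edgeR adjusted p = 0.242), and its difference was -0.00031 after the gene length correction. In TPM the 3 genes had lower means in YT-AKO (H2-K1 2711 against 3050, H2-D1 3086 against 3407, B2m 6738 against 8452), so the sign of these uncalled differences depended on the scale. The median log2 ratio of all tested genes was -0.66 in TPM and -0.02 in CPM. A lower TPM mean alone therefore does not set these genes apart from genes at large.

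The peptide transporter genes pointed in opposite directions and did not pass with all libraries. Tap1 was at 199, 165 and 154 CPM in YT-FF and 124, 145 and 124 CPM in YT-AKO (-0.40 ± 0.17, edgeR adjusted p = 0.114). Tap2 was at 110, 89.7 and 100 CPM in YT-FF and 121, 229 and 126 CPM in YT-AKO (0.67 ± 0.27, edgeR adjusted p = 0.102). Neither gene overlapped between groups. Tap1 passed without YT-AKO 2 (-0.48, edgeR adjusted p = 0.0370), with the GC correction (-0.60, 0.0422) and with library totals alone (-0.74, 0.0297), and was at -0.20 with the gene length correction. Tap2 was at 0.30 without YT-AKO 2. Tapbp measured 350, 299 and 357 CPM against 399, 445 and 429 CPM (0.34 ± 0.17, edgeR adjusted p = 0.162). Of its exon bases 29.0% are also annotated as other genes, with Gm19412 the largest overlap, and fragments there were not counted.

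Among the non-classical class I genes 14 of 27 were tested, and H2-M2 and H2-Q2 passed. H2-M2, a heavy chain gene at the far end of the cluster, measured 23.8, 21.4 and 14.2 CPM in YT-FF and 8.48, 7.24 and 9.09 CPM in YT-AKO. Every YT-AKO library was below every YT-FF library, and H2-M2 fell by 1.26 ± 0.24 (edgeR adjusted p = 0.0203), by 1.61 with the gene length correction (edgeR adjusted p = 0.0229). It was called in 14 of 18 alternative fits, and 1.61% of its words occur in another gene. H2-Q2 rested on 19, 15 and 13 fragments in YT-FF and 3, 4 and 1 in YT-AKO. Its log2 fold change of -2.14 ± 0.61 has a 95% interval of -3.56 to -0.73 (edgeR adjusted p = 0.0440), it was called in 6 of 17 alternative fits, and 16.1% of its words occur in another gene.

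The other 12 tested non-classical class I genes had log2 fold changes between -1.25 and 0.62. H2-T24 was at 38.3, 34.3 and 24.4 CPM in YT-FF and 20.4, 4.06 and 16.3 CPM in YT-AKO, with no overlap but a wide spread (-1.25 ± 0.51, edgeR adjusted p = 0.105); it passed with DESeq2 (adjusted p = 0.0282) and without YT-AKO 2 (-0.82, edgeR adjusted p = 0.0210). H2-Q5, a polymorphic pseudogene that shares 36.4% of its words with other genes, was at 36.9 to 52.8 CPM in YT-FF and 30.5 to 34.5 CPM in YT-AKO (-0.50 ± 0.18, edgeR adjusted p = 0.0732; -0.85 with adjusted p = 0.0343 with the gene length correction). H2-Q10, which encodes a secreted heavy chain, was at 147 to 202 CPM in YT-FF and 343, 292 and 151 CPM in YT-AKO (0.62 ± 0.30, edgeR adjusted p = 0.161; 0.91 with adjusted p = 0.0410 without YT-AKO 3). H2-T23 encodes Qa-1, the ligand of the NK cell receptor CD94–NKG2A, and was at 303, 223 and 241 CPM in YT-FF and 249, 565 and 269 CPM in YT-AKO (0.50 ± 0.33, edgeR adjusted p = 0.284). H2-M3, which presents formylated bacterial peptides, was at 33.9 to 40.2 CPM and 27.4 to 38.5 CPM (-0.17 ± 0.18, edgeR adjusted p = 0.504). In these 3 the groups overlapped. H2-T22 and H2-T10, ligands of γδ T cells, share 53.5% and 50.4% of their words with other genes, chiefly with each other, and had differences of 0.39 ± 0.26 and 0.07 ± 0.27. H2-Q4, H2-Q6 and H2-Q7 share 36.4%, 35.0% and 26.5% of their words and had differences of 0.01 ± 0.20, 0.12 ± 0.29 and -0.06 ± 0.26. H2-K2 (0.49 ± 0.36) and H2-M9 (-0.04 ± 0.38) complete the list. Fragments that align to several copies were left out by the counting, so the levels of the copied genes are uncertain.

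H2-Ke6 belongs to neither class: it lies within the MHC and encodes a dehydrogenase. It had 19, 9 and 5 fragments in YT-FF and 5, 44 and 12 in YT-AKO, with overlapping groups (1.27 ± 0.83, edgeR adjusted p = 0.279). Of its exon bases 86.4% are also annotated as other genes, with Gm20427 the largest overlap.

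The remaining 15 members were not tested. H2-M10.1, H2-M10.3, H2-M10.4, H2-M10.5, H2-M10.6 and H2-Pa had no fragment in any library, which allows levels of up to 0.128 to 0.177 CPM per library (3 fragments, counting error alone; fragments carry no molecular identifiers). H2-M10 genes are known from sensory neurons of the vomeronasal organ. The other 9 had few fragments: H2-M5 had 21, 2 and 15 in YT-FF and 4, 0 and 0 in YT-AKO, H2-M11 had 10, 2 and 5 against 16, 12 and 4, and H2-Q1 had 4, 5 and 18 against 9, 4 and 4. H2-Bl, H2-M1, H2-M10.2, H2-Q3, H2-T3 and H2-Pb had between 0 and 4 fragments in each library. Groups overlapped for all 9.

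**Figure D3:**
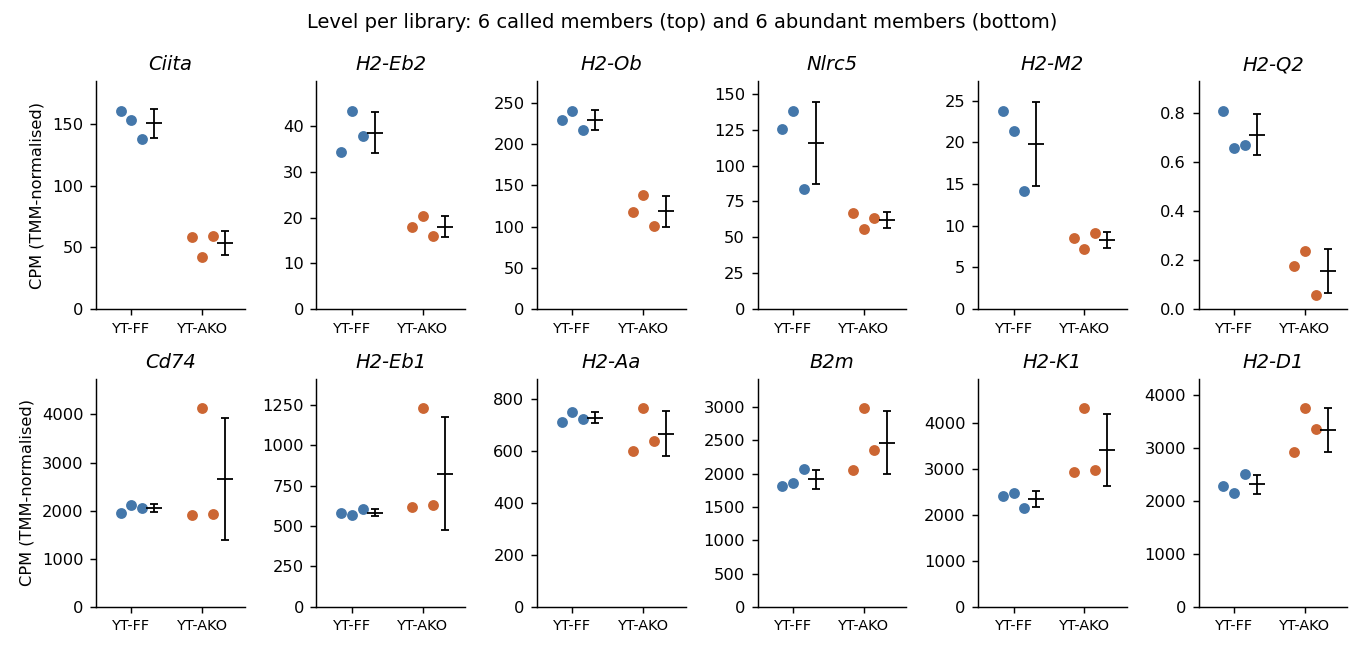
TMM-normalised CPM in each library (points; bars are mean ± SD, n = 3) for the 6 members that passed the test (top) and 6 abundant members (bottom). In the top row the groups do not overlap, as for Ciita at 138 to 161 against 42.4 to 59.4 CPM, and in the bottom row a single YT-AKO point, library YT-AKO 2, lies above the others for Cd74 and H2-Eb1.

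Class I and class II were then compared as groups. Of 21 tested class I genes 3 fell and the median log2 fold change was 0.07, and of 11 tested class II genes 3 fell with a median of -0.17. Over all tested genes 9.01% were called lower and the median was -0.02. Without YT-AKO 2 the medians were -0.24 and -0.40, with the same -0.02 over all genes. The summed class I level was 9059, 8701 and 8897 CPM in YT-FF and 10192, 14401 and 10882 CPM in YT-AKO, all 3 above the YT-FF range. The summed class II level was 4582, 4735 and 4709 CPM in YT-FF and 4108, 7826 and 4199 CPM in YT-AKO, with 2 libraries below the YT-FF range and YT-AKO 2 above it. In TPM both sums were lower in every YT-AKO library: 17343 to 17964 against 13113 to 15650 for class I, and 7926 to 8697 against 5490 to 6924 for class II. On that scale the median log2 ratio of all tested genes was -0.66. The log2 ratio of class II to class I within a library needs no scaling between libraries. It was -0.98, -0.88 and -0.92 in YT-FF and -1.31, -0.88 and -1.37 in YT-AKO, so 2 YT-AKO libraries had less class II for their class I and YT-AKO 2 matched the YT-FF libraries. The mean difference was -0.26, -0.42 without YT-AKO 2 and -0.40 without Cd74 and B2m, and the groups overlapped. In 26 of the 33 tested members YT-AKO 2 was the highest of the 3 YT-AKO libraries in CPM. The same share over all tested genes was not taken, so this count cannot be read as a trait of the members.

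**Figure D4:**
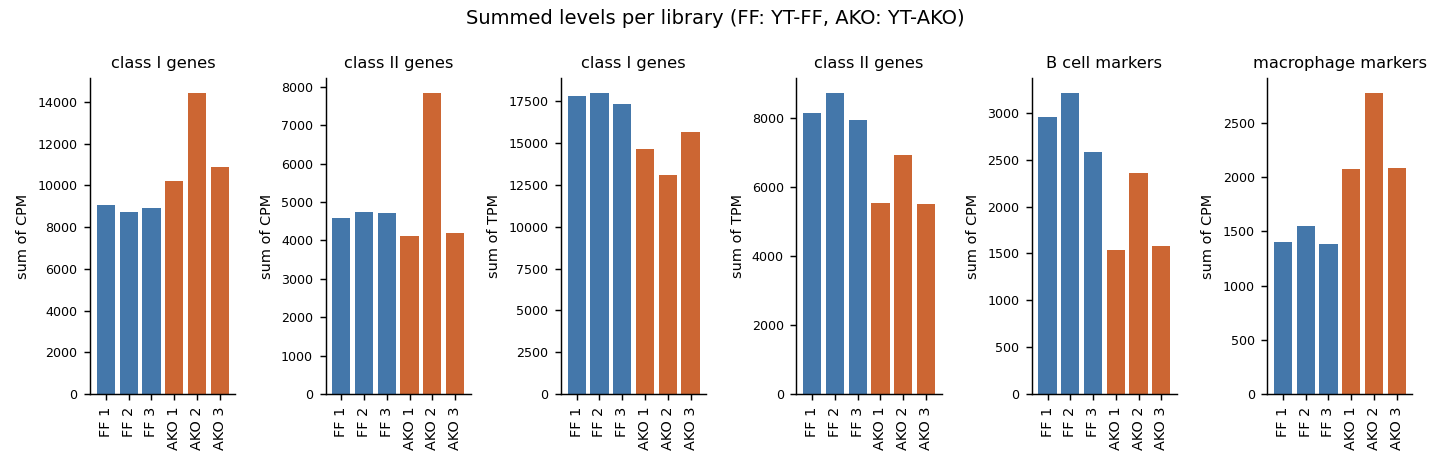
Summed level per library of the class I and class II genes (CPM, then TPM) and of 12 B cell and 12 macrophage markers (CPM), blue for YT-FF and orange for YT-AKO. Class I sums are higher in YT-AKO in CPM (10192 to 14401 against 8701 to 9059) and lower in TPM, a scale on which 79.35% of all tested genes are lower. YT-AKO 2 alone carries a high class II sum of 7826 CPM.

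Ratios between members of a pair showed how far the low genes moved away from the abundant ones. Per 100 fragments of Cd74 there were 8.20, 7.22 and 6.69 fragments of Ciita in YT-FF and 3.07, 1.03 and 3.07 in YT-AKO. Per 100 fragments of H2-Eb1 there were 5.97, 7.66 and 6.27 of H2-Eb2 in YT-FF and 2.91, 1.66 and 2.54 in YT-AKO. Per 100 fragments of H2-Aa there were 32.4, 32.1 and 30.0 of H2-Ob in YT-FF and 19.6, 18.1 and 15.8 in YT-AKO. None of these 3 ratios overlapped between groups, with YT-AKO 2 included, and none depends on the scaling of libraries. On the class I side there were 6.92, 7.47 and 4.04 fragments of Nlrc5 per 100 of B2m in YT-FF and 3.26, 1.88 and 2.70 in YT-AKO, also without overlap. Per 100 fragments of H2-DMb1 there were 184, 174 and 174 of H2-DMb2 in YT-FF and 134, 125 and 141 in YT-AKO. Per 100 fragments of H2-Oa, the partner of H2-Ob, there were 738, 715 and 694 of H2-Ob in YT-FF and 687, 425 and 473 in YT-AKO. A ratio does not remove an effect of gene length, and in each pair the gene with fewer fragments per 100, or H2-DMb2 and H2-Ob, is the longer gene. Ciita has 9535 exon bases against 1679 for Cd74, and Nlrc5 8493 against 860 for B2m. With the gene length correction the log2 fold changes were -1.08 for Ciita and 0.0095 for Cd74, and -0.51 for Nlrc5 and -0.00031 for B2m. The pairs were picked with the fold changes known, so the ratios describe these libraries and carry no test.

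Markers of the cells that make class II molecules did not move as a block. Their counts stand beside 9.01% of all tested genes called lower and 12.6% called higher. Of 12 B cell markers 8 fell and 0 rose, among them Ms4a1 (173, 202 and 158 CPM against 85.1, 77.0 and 74.9 CPM; -1.17 ± 0.16), with a median of -0.98 over the 12. Their summed level was 2584 to 3205 CPM in YT-FF and 1539 to 2352 CPM in YT-AKO, and none of the 12 was at 0. The called B cell markers had log2 fold changes of -0.73 to -1.48, and Ciita, H2-Eb2 and H2-Ob of -0.95 to -1.50. Both sets were picked as called lower in this comparison, so their shared direction follows from the choice and links them no further. Of 12 macrophage markers 4 rose and 0 fell (C1qa 1.73 ± 0.29, C1qb 1.38 ± 0.22, C1qc 1.29 ± 0.18 and Fcgr1 0.91 ± 0.21), with sums of 1381 to 1549 CPM in YT-FF and 2078 to 2772 CPM in YT-AKO. Of 9 dendritic cell markers Clec10a rose (1.41 ± 0.19) and Flt3 fell (-0.64 ± 0.18), while 7 of the 9 had a log2 fold change below 0, with a median of -0.41. In 4 of them the YT-AKO libraries lay below all YT-FF libraries and in 2 above, beside 25.8% and 25.7% of all tested genes. The sum of all 9 was 178 to 211 CPM in YT-FF and 232 to 319 CPM in YT-AKO. Flt3 was at -0.40 with the gene length correction (edgeR adjusted p = 0.136), and Fcgr1 at 0.57 with library totals alone (edgeR adjusted p = 0.0705). The part of these cells in the MHC values was not tested, and in bulk tissue fewer cells of a type and less RNA per cell cannot be told apart.

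Other cell types were counted in the same way, beside the same 9.01% of all tested genes called lower and 12.6% called higher. Of 10 T cell markers 1 fell, Cd4 (-0.89 ± 0.20), with sums of 563 to 805 CPM in YT-FF and 567, 975 and 456 CPM in YT-AKO. Of 6 NK cell markers none passed in edgeR (1 at an unadjusted p under 0.05). Of 6 plasma cell markers Sdc1 rose, and of 5 tested lymph node stroma markers Fcamr fell, while Ccl19 was at 0.25 to 2.37 CPM in 5 libraries and 31.0 CPM in YT-AKO 2. Of 7 endothelial markers Kdr fell, of 7 fibroblast markers Pi16 and Lum rose and Dpp4 fell, and of 7 adipocyte markers Lipe and Fabp4 rose. With the gene length correction Kdr, Dpp4, Lum and Fabp4 missed the threshold (edgeR adjusted p = 0.109, 0.0528, 0.0698 and 0.0562), and with library totals alone Sdc1, Pi16, Lum, Lipe and Fabp4 did (0.127, 0.0986, 0.181, 0.0944 and 0.0514). Skeletal muscle markers summed to 3132 CPM in YT-AKO 1 and 116 to 449 CPM elsewhere, with Acta1 called higher, though not with the gene length correction (edgeR adjusted p = 0.0609). Brown depot and epithelial markers gave no call in edgeR (1 and 0 at an unadjusted p under 0.05), with Zic1 and Krt5 at 0 in every library.

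The genes around the members in the pathway were taken from fixed lists. Counts of calls in these lists, here and below, stand beside 9.01% of all tested genes called lower and 12.6% called higher. Of 11 transcription factors of MHC promoters 4 fell and 0 rose. These were Rfx5, a subunit of the RFX complex that recruits Ciita and Nlrc5 (34.3, 33.4 and 22.4 CPM against 15.6, 7.66 and 14.9 CPM; -1.24 ± 0.31, edgeR adjusted p = 0.0314), Creb1 (-0.68 ± 0.15), Irf2 (-0.79 ± 0.20) and Irf8 (-0.52 ± 0.15). The RFX partners Rfxap (0.78 ± 0.25, edgeR adjusted p = 0.0604) and Rfxank (0.92 ± 0.36, edgeR adjusted p = 0.0990) pointed the other way. With the gene length correction Rfx5 remained below the threshold at -1.07 (edgeR adjusted p = 0.0407), and Creb1, Irf2 and Irf8 did not (-0.11, -0.48 and -0.21).

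Interferon gamma signalling showed no call among 10 tested genes in edgeR (2 at an unadjusted p under 0.05, beside 40.8% of all tested genes). Ifng had 3, 7 and 3 fragments in YT-FF and 3, 10 and 3 in YT-AKO and was not tested, and its target Irf1 was at 70.4 to 94.0 CPM against 92.9 to 128 CPM (0.36 ± 0.19, edgeR adjusted p = 0.188).

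In the making of class I peptides, 2 of 5 immunoproteasome and proteasome activator genes rose and 0 fell. All 5 had a log2 fold change above 0, from 0.61 to 1.72 with a median of 1.38. In all 5 every YT-AKO library was above every YT-FF library, beside 25.7% of all tested genes. At an unadjusted p under 0.05 in edgeR there were 4 of the 5, beside 40.8% of all tested genes. Psmb10 was at 75.7, 63.4 and 82.4 CPM in YT-FF and 127, 458 and 142 CPM in YT-AKO (1.72 ± 0.48, edgeR adjusted p = 0.0421), and Psme2 at 77.9 to 86.4 and 138, 429 and 150 CPM (1.54 ± 0.43, edgeR adjusted p = 0.0404). Without YT-AKO 2 the differences were 0.87 and 0.81 and still passed (edgeR adjusted p = 0.00474 and 0.00313). With the gene length correction they were 1.34 and 1.18 and missed the threshold (edgeR adjusted p = 0.0720 and 0.0721). Of 6 genes for class I peptide loading and trimming the chaperone genes Calr (0.61 ± 0.16) and Hspa5 (0.79 ± 0.20) rose and Erap1, a trimming peptidase, fell (-0.58 ± 0.17). With the gene length correction Erap1 was at -0.27 and Calr at 0.50, and both missed the threshold (edgeR adjusted p = 0.168 and 0.0692). With library totals alone Calr was at 0.27 and Hspa5 at 0.46 and missed it too (edgeR adjusted p = 0.254 and 0.126).

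In the making of class II peptides, 3 of 8 genes rose, the lysosomal proteases Lgmn (0.85 ± 0.17), Ctsb (0.78 ± 0.21) and Ctsd (1.35 ± 0.37). Ctsd was at 0.87 without YT-AKO 2, where it passed (edgeR adjusted p = 0.0168), and at 1.13 with the gene length correction, where it did not (edgeR adjusted p = 0.0660). With library totals alone Lgmn was at 0.51 and Ctsb at 0.46, and both missed the threshold (edgeR adjusted p = 0.0523 and 0.0988). March1 fell, at 44.8, 46.4 and 39.4 CPM in YT-FF and 24.1, 12.7 and 15.8 CPM in YT-AKO (-1.31 ± 0.25, edgeR adjusted p = 0.0198). March1 encodes the ubiquitin ligase that sends class II molecules from the cell surface to lysosomes. Ctss, the protease of the invariant chain, was at 139 to 182 and 165 to 203 CPM (0.13 ± 0.17, edgeR adjusted p = 0.612).

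**Figure D5:**
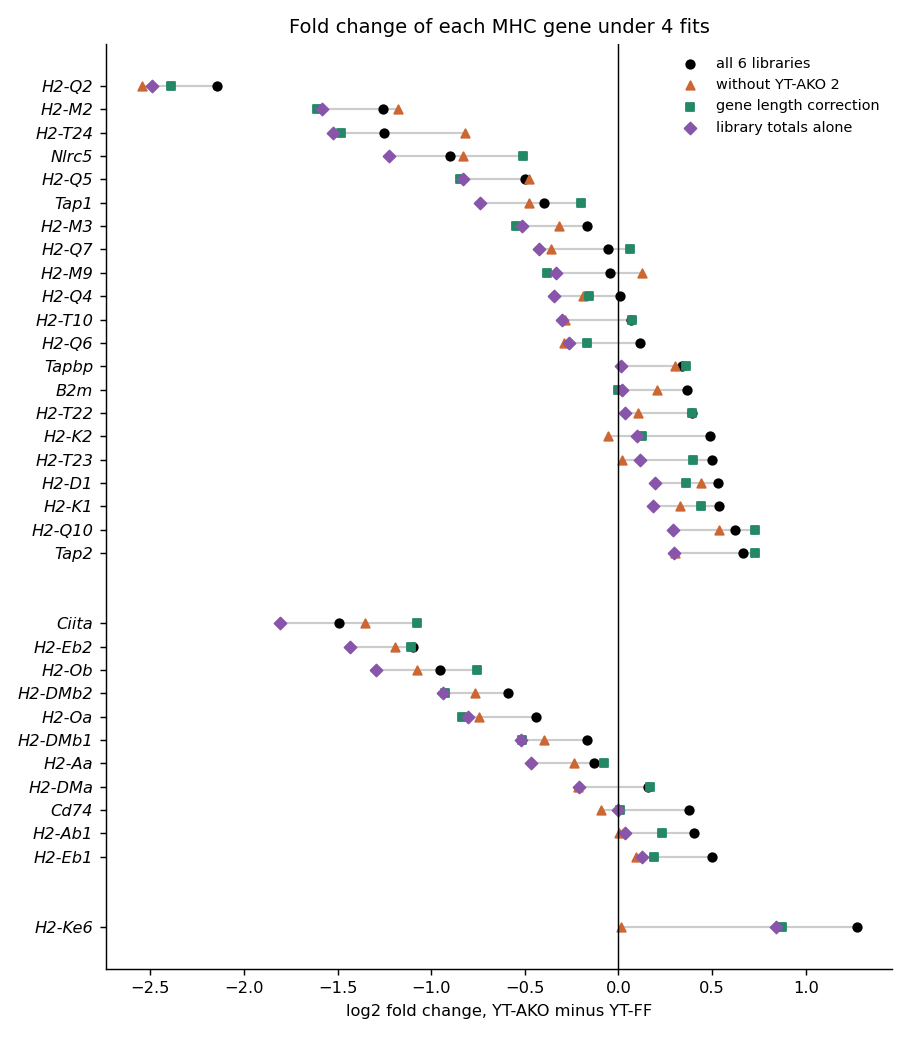
Log2 fold change (YT-AKO minus YT-FF) of each tested MHC gene with all 6 libraries, without YT-AKO 2, with correction for gene length and with library totals alone. Ciita, H2-Eb2, H2-Ob, Nlrc5, H2-M2 and H2-Q2 lie below 0 in all 4 fits, and genes such as Cd74, H2-Q4 and H2-T10 cross 0.

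Across the 18 alternative fits 19 members kept their direction throughout and 14 took the other direction in at least 1. The 19 hold the 6 called members, together with H2-T24, H2-DMb1, H2-DMb2, H2-Oa, H2-Q5, H2-M3 and Tap1 on the lower side and H2-K1, H2-D1, H2-Q10, H2-T22, Tap2 and Tapbp on the higher side. With library totals alone the median of all tested genes was -0.34, and H2-K1 and H2-D1 were at 0.18 and 0.20, above that median.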

How the data were processed

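The deposited files hold raw counts of read pairs per gene, 1 file per library. Per the methods and the file headers, the authors aligned reads to mm10 with HISAT2 and made the counts with featureCounts 2.0.1 over exons of GENCODE vM25, without strand and with multi-mapping pairs left out. Exon lengths in the files (another deposited column) were used for TPM. Symbols came from a GENCODE annotation of the same assembly and matched 55141 of 55401 gene IDs. The authors' methods name DESeq2; here edgeR 4.0.16 (R 4.3.3) was the main test, with TMM factors, a filter (min.count 10, min.total 15), glmQLFit and glmQLFTest on 16807 genes, Benjamini-Hochberg adjustment over all of them and calls at adjusted p under 0.05. DESeq2 1.42.0 and limma 3.58.1 (voom) were alternatives, with other scalings and filters, a replicate block, corrections for gene length or GC content, and each library left out in turn.

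TPM ratios used a pseudocount of 0.01. Shared words are 50-base stretches of a gene's exons found in another gene. Depth was 17740987 to 21838493 counts per library. On simulated counts for this comparison with 200 of 16807 genes changed by a log2 fold of 2, edgeR called 148 (74%) and 6 unchanged genes. The labels name separate samples, and p-values measure the spread between them. The members, the lists (8 of pathways, 13 of cell type markers) and the tests were chosen with earlier results of these data known. Every member was named; of the lists, genes past the threshold and the 2 most abundant per list could be named, and Rfxap, Rfxank, Irf1, Ctss, Cd40, Cd80, Cd86, Ccl19, Ifng, Zic1 and Krt5 were named after their values were seen.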

Additional observations from a re-analysis of the deposited data

How the results depend on the processing

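When 1 library was left out, the 6 members called became between 0 (without YT-FF 1 or YT-FF 2, with 7 and 8 members at an unadjusted p under 0.05 and no other tool fitted) and 12 (without YT-AKO 2). There were also 12 with the length correction without YT-AKO 2 and 10 with library totals alone, and between 6 and 8 under DESeq2, limma-voom, upper-quartile factors, the other filters, robust estimation and the length and GC corrections. Over all tested genes 3637 were called with all libraries, 0 without YT-FF 1, 2 without YT-FF 2, 1232 without YT-FF 3 and 5351 without YT-AKO 2; the cause was not tested. The class I median of 0.07 ranged from -0.24 to 0.22 when 1 library was left out and was -0.30 with library totals alone and -0.31 with the length correction without YT-AKO 2. The class II median of -0.17 was -0.52 with library totals alone, -0.52 with the length correction, -0.53 with the replicate block and length correction and -0.64 with the length correction without YT-AKO 2. The class II to class I ratio stayed between -0.42 and -0.15 under 12 alternatives. Among these, library totals alone and upper-quartile factors cannot change a ratio within a library.

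The replicate numbers were not taken to pair the libraries, since the correlations of same-numbered libraries were 0.114, -0.111 and -0.0906 and 1 of the 3 YT-FF libraries correlated best with the YT-AKO library of its own number. With the replicate block 0 members were called by edgeR (9 at an unadjusted p under 0.05) and 33 of 16807 genes, and with the block and length correction 0 members (12 at an unadjusted p under 0.05) and 65 genes.

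Members that did not pass the test took the other direction under some fits, 14 of them in all. These were, under the length correction without YT-AKO 2, an alternative added after seeing the data, H2-K2 (-0.30), H2-Q4 (-0.34), H2-Q6 (-0.50), H2-T10 (-0.31), H2-T23 (-0.086), H2-Ab1 (-0.15), H2-Eb1 (-0.13), H2-DMa (-0.24), Cd74 (-0.33) and H2-Ke6 (-0.22). Under limma-voom, H2-M9 (6.8e-05) and H2-Q4 (-0.0047). Under the GC correction, H2-M9 (0.21), H2-Q4 (-0.15), H2-Q6 (-0.13), H2-Aa (0.00088) and H2-DMa (-0.063). Under upper-quartile factors, H2-Q4 (-0.037). Under library totals alone, H2-Q4 (-0.34), H2-Q6 (-0.26), H2-T10 (-0.30), H2-DMa (-0.21) and Cd74 (-0.0044). Under at least 10 counts in every library, H2-Q4 (-0.020). Under the replicate block, H2-Q4 (-0.0064). Under the length correction, H2-Q4 (-0.16), H2-Q6 (-0.17), H2-Q7 (0.060) and B2m (-0.00031). Under the replicate block with length correction, H2-Q4 (-0.17), H2-Q6 (-0.22), H2-Q7 (0.0046), B2m (-0.0058) and Cd74 (-0.061). When 1 library was left out, the log2 fold change ranged as follows: H2-K2 -0.056 to 0.77, H2-M9 -0.31 to 0.32, H2-Q4 -0.19 to 0.11, H2-Q6 -0.29 to 0.30, H2-Q7 -0.36 to 0.091, H2-T10 -0.29 to 0.24, H2-DMa -0.22 to 0.36, Cd74 -0.094 to 0.58. With the length correction without YT-AKO 2, H2-Q6 also passed the test (edgeR adjusted p = 0.0494). Depth limits H2-Q2, H2-Ke6 and the 15 members that were not tested. An annotation and promoter table of another release than the authors' was used, which was not tested.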

Other observations

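Genes related to the MHC by structure or by the receptors that read it were also measured, again beside 9.01% of all tested genes called lower and 12.6% called higher. Of 5 tested MHC-like genes outside the H2- symbols 2 rose and 0 fell: Fcgrt, the neonatal Fc receptor that recycles antibody and albumin (242, 228 and 306 CPM in YT-FF and 428, 859 and 540 CPM in YT-AKO; log2 fold change 1.23 ± 0.28, edgeR adjusted p = 0.0271), and Procr (0.69 ± 0.19; 0.42 with edgeR adjusted p = 0.178 with the gene length correction). Cd1d1, which presents lipids to NKT cells and was the second most abundant of the list, was at 199 to 322 CPM against 162 to 205 CPM (-0.39 ± 0.23, edgeR adjusted p = 0.225). Of 5 co-stimulatory genes Icosl, the ligand of the T cell receptor ICOS, fell, from 129 ± 24.1 CPM in YT-FF to 72.4 ± 7.79 CPM (SD, n = 3) in YT-AKO (-0.83 ± 0.19, edgeR adjusted p = 0.0264), and Cd80, Cd86, Cd40 and Cd274 had differences of -0.37, -0.41, -0.10 and -0.48 that did not pass. Of 10 genes for receptors that read MHC molecules Cd4, the co-receptor for class II, fell (-0.89 ± 0.20) and Lag3, which also binds class II, rose (15.7, 12.0 and 15.6 CPM against 23.6, 38.3 and 22.3 CPM; 0.96 ± 0.25, edgeR adjusted p = 0.0364; 0.69 with adjusted p = 0.0752 with the gene length correction).

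Of the 4 H2- symbols ending in -ps, which the rule leaves out, H2-T-ps had 144, 137 and 86 fragments in YT-FF and 64, 96 and 64 in YT-AKO (-0.33 ± 0.29, edgeR adjusted p = 0.402). H2-M6-ps had 6, 12 and 3 against 1, 0 and 1, H2-Ea-ps had 1, 0 and 2 against 0 in each library, and H2-M10.5-ps1 had no fragment.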
